A study of Homo sapiens with 6 samples.

Results

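The genes described here encode RNA polymerase II and the proteins that carry it through initiation, promoter-proximal pausing and elongation. They were chosen by symbol alone: the polymerase subunits (POLR2), Mediator (MED), the TBP-associated factors (TAF), the general factors TFIIA, TFIIB, TFIIE, TFIIF and TFIIH (GTF2A, B, E, F and H), the SUPT genes, the ELL family, TFIIS (TCEA1 to TCEA3), elongin (TCEB), Integrator (INTS) and the NELF genes TH1L, WHSC2, COBRA1 and RDBP. Of 12438 gene symbols, 68 matched (134 of 22442 rows), and for each symbol the row with the highest mean gene body density was used. These 68 members comprise 10 polymerase II genes, 11 general factor genes, 9 TAFs of the polymerase II system, 3 TAFs of the polymerase I factor SL1 (TAF1A, TAF1C and TAF1D), 3 genes of the coactivator SAGA (SUPT7L, TAF5L and TAF6L) and 13 Mediator genes. The others are 3 NELF genes, 3 TFIIS genes, ELL3, 2 elongin genes and 10 Integrator genes. Other symbols that the rule would take, among them SUPT5H, COBRA1, MED1, MED12 and POLR2B, were not among the 12438, so the members are a part of the machinery.

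The measurements come from GRO-seq, a run-on assay in nuclei that sequences the RNA being made by engaged polymerases. The cells were A375, an established human malignant melanoma line. Treatment lasted 48 h and was 25 µM leflunomide, 25 µM A771726 or solvent (DMSO), with 2 replicates in each of the 3 groups. The prodrug leflunomide carries an isoxazole ring, which is open in its active metabolite A771726, also called teriflunomide. Their known target is dihydroorotate dehydrogenase, an enzyme of pyrimidine synthesis. Nothing in the labels says that the replicates were separate cultures, so every p-value measures the spread between these libraries, which may be technical. Nascent RNA was pooled from all cells of a sample, so that fewer transcribing cells and less RNA per cell cannot be told apart.

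RNA polymerase II starts transcription with the general factors: TFIID, made of TBP and TAFs, binds the core promoter with TFIIA and TFIIB, TFIIF brings in the polymerase, and TFIIE and TFIIH open the DNA. Mediator, built from head, middle and tail modules and a detachable kinase module, connects DNA-bound activators to the polymerase. Shortly after initiation NELF, together with DSIF, holds the polymerase in a paused state, and TFIIS, elongin and the ELL proteins help it to move on afterwards. Integrator cleaves nascent RNA at snRNA genes and can end transcription near promoters. A gene's promoter density divided by its gene body density, the traveling ratio, is the usual GRO-seq measure of pausing.

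The deposited tables give the authors' mean promoter density, gene body density and traveling ratio for each group, so these means carry no SD or n. The values of the 2 libraries behind most means were recovered arithmetically and are called library 1 and library 2 of a group. Library 1 is the one in which 1 promoter read has the smaller value: 1 read was worth 0.0438 and 0.0520 (DMSO), 0.0347 and 0.0376 (leflunomide) and 0.0241 and 0.0313 (A771726). The libraries were not matched to the labels' replicate letters, and library totals were not analysed here. Of the melanocyte lineage markers, SOX10, S100A1, MIA and PAX3 lay at percentiles 98.4, 97.4, 96.9 and 73.0 of DMSO gene body densities, and the pigmentation genes MLANA, MITF and PMEL at 42.1, 36.3 and 31.9. Markers of other cells, PECAM1, COL1A1, CDH5 and CDH1, lay at 19.6, 14.4, 9.21 and 7.69, with KRT14 at 51.2.

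The machinery genes were transcribed above the typical gene of the tables. Their median gene body density in DMSO was 0.0278, against 0.0196 over all genes, and their median promoter density was 0.0725 against 0.0219. A promoter mean of 0 was listed for 5 of the 68 members in DMSO (7.35%), 4 with leflunomide (5.88%) and 9 with A771726 (13.2%). Over all genes these shares were 42.9%, 34.9% and 39.6%. Within the set the highest DMSO gene body density was that of TAF1D, at 0.231, followed by TCEB2 (0.123), INTS5 (0.121), POLR2L (0.111), TH1L (0.110), TAF10 (0.106) and POLR2A (0.105). The 2 libraries of most of these neighbours spread over more than the gap between them, as at POLR2A (0.121 and 0.0900) and INTS5 (0.166 and 0.0750). TAF1D, whose introns host small nucleolar RNAs, stood apart at 0.249 and 0.214.

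The stretches of 100 bases directly upstream of the start are shown for 7 members because their promoter or gene body values carry the results that follow. They were taken from RefSeq on GRCh38.p14, not from the hg18 build of the deposited files, and read 5′ to 3′ on the strand of the gene. Capitals mark GGGCGG on either strand, the letters of the GC box. The stretches lie at chr6:31958972-31959071 (RDBP, minus strand), chr19:1095376-1095475 (POLR2E, minus), chr15:59657516-59657615 (GTF2A2, minus), chr1:28328940-28329039 (MED18, plus), chr17:7484266-7484365 (POLR2A, plus), chr13:48095105-48095204 (MED4, minus) and chr11:93741496-93741595 (TAF1D, minus).
RDBP: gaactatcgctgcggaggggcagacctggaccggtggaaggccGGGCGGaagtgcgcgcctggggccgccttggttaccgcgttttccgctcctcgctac
POLR2E: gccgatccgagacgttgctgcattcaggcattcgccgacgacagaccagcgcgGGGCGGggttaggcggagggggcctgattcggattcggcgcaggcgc
GTF2A2: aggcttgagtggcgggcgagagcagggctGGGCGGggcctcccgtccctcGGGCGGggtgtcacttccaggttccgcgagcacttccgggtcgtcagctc
MED18: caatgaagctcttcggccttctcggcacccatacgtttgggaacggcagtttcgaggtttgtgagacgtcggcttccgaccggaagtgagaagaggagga
POLR2A: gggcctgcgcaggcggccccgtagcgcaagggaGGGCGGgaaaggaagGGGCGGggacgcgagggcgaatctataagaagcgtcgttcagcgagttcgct
MED4: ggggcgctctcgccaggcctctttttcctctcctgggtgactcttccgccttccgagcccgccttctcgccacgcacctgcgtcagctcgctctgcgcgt
TAF1D: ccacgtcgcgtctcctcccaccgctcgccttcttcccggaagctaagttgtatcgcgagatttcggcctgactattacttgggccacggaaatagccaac

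Over 250 upstream bases and both strands, 32 of the 49 members with a promoter entry held GGGCGG (65.3%), against 42.6% of 35116 promoters. CCAAT was found in 28.6% of them against 32.0%, and TATAAA in 2 (4.08%) against 10.7%, with a median GC content of 61.6% against 58.0%. In the stretches shown, RDBP and POLR2E carry 1 GC box sequence each, GTF2A2 and POLR2A carry 2 each, and MED18, MED4 and TAF1D carry none. The 35116 are all RefSeq promoter entries, not only those of genes measured or transcribed here, so the sets compared are unlike. These matches describe letters only.

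The first comparison was leflunomide against DMSO. Gene bodies of the machinery genes were near their DMSO level: the median log2 change of the 64 members past a filter on low values was 0.07, against −0.06 over all genes tested. No member was 2-fold higher (background 1.84%) and 1 of 64, GTF2A2, was at least 2-fold lower (1.56%, background 4.49%). It stayed so relative to the median gene (background 3.89%). Changes are log2 ratios of the means after adding a pseudocount of 0.0022, which understates the change of low genes. Relative to the median gene 41 members lay above and 23 below, among them 8 of 10 polymerase II genes above. The members INTS9, MED23, TCEA3 and GTF2E2 were under the filter.

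GTF2A2 encodes the small subunit of TFIIA, which steadies TBP on the promoter. Its gene body densities were 0.0604 and 0.0464 (DMSO), 0.0310 and 0.0163 (leflunomide) and 0.0247 and 0.0246 (A771726). All 4 treated values lay below both DMSO values. The log2 change with leflunomide was −1.15 (95% interval −2.05 to −0.26) by limma, with an adjusted p of 0.970 over 4569 genes. Without leflunomide library 2 that estimate was −0.73. GTF2A1, which encodes the other TFIIA chains, had 0.0263 and 0.0291 (DMSO), 0.0223 and 0.0224 (leflunomide) and 0.0171 and 0.0184 (A771726), with all treated values below both DMSO values.

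Among the lowest of the set with leflunomide after GTF2A2 were POLR2E, a subunit shared by all 3 nuclear polymerases (log2 change −0.66), TCEA2 (−0.63), INTS10 (−0.56), the SAGA gene SUPT7L (−0.50) and TAF6 (−0.48). At each of these genes both leflunomide libraries lay below both DMSO libraries. GTF2A1 (−0.28) and POLR2H, another subunit of all 3 polymerases (−0.27), came next, with overlapping libraries at POLR2H. POLR2E had 0.0479 and 0.0542 in DMSO and 0.0416 and 0.0216 with leflunomide, with library 2 the lower. The highest members were the pseudogene INTS4L2 (0.80), WHSC2, which encodes NELF-A (0.66), TAF10 (0.66), TAF1C (0.64), TAF9B (0.63), TAF9 (0.63), POLR2D (0.61) and GTF2H4 (0.55). WHSC2 had 0.0225 and 0.0203 in DMSO and 0.0392 and 0.0309 with leflunomide, and TAF10, shared by TFIID and SAGA, had 0.0982 and 0.115 in DMSO and 0.141 and 0.197 with leflunomide. The groups did not overlap at WHSC2, TAF10 and TAF9B, whereas TAF9, which shares its locus with AK6, overlapped. TAF1C and GTF2H4 overlapped as well. INTS4L2 had no recovered leflunomide values and POLR2D no recovered DMSO values.

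Over the 57 members with library values in both groups, 8 had both leflunomide libraries above both DMSO libraries (background 13.8%) and 9 had both below (background 21.5%). By limma 0 of 49 members were called at an adjusted p of 0.05, nor was any of the 4569 genes (background 0%). At an unadjusted p under 0.05 limma had 1 member, GTF2A2, beside 218 genes (4.77%).

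**Figure D1:**
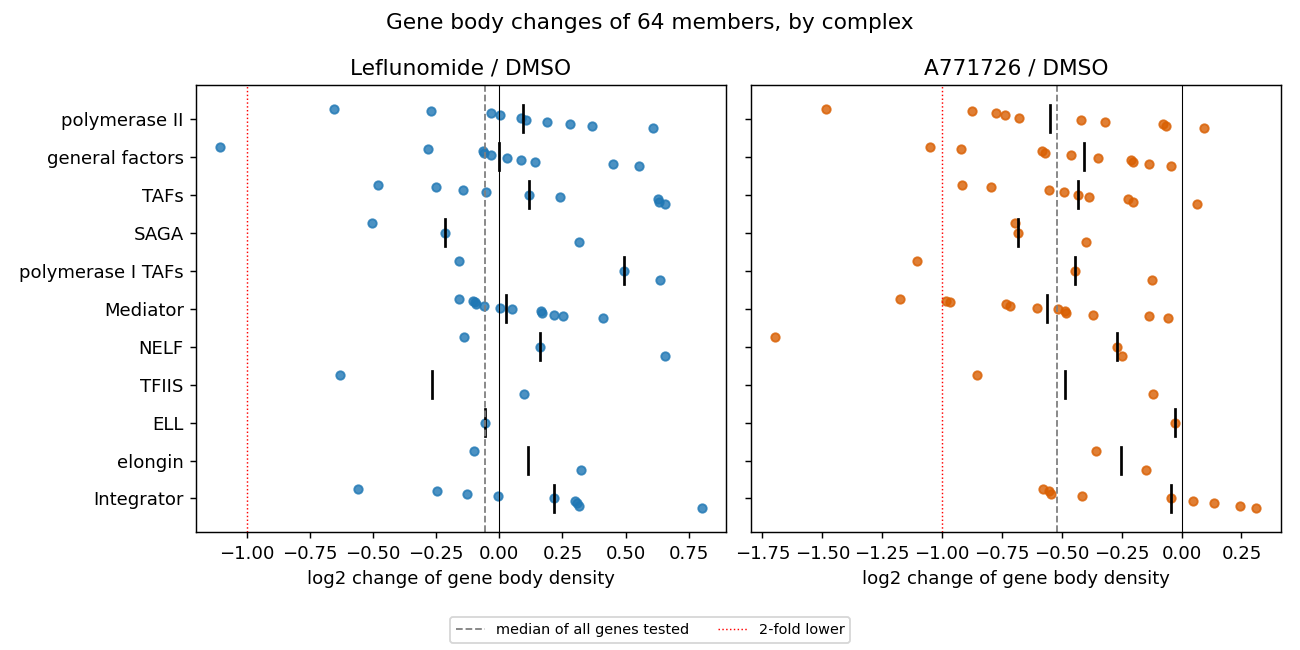
Log2 change of the mean gene body density against DMSO (x axis) for each member past the filter, in rows by complex, with leflunomide on the left and A771726 on the right. Points are genes, short black lines are the medians of a complex, the dashed line is the median of all genes (−0.06 and −0.52) and the dotted line marks a 2-fold lower density. With A771726 the points lie mostly left of 0 and around the dashed line, with RDBP farthest left at −1.70.

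A771726 was next compared with DMSO. Gene body densities of the machinery were lower than in DMSO, and so were those of genes in general. The median log2 change was −0.44 over the 64 members and −0.52 over all genes. No member was 2-fold higher (background 0.839%) and 5 were at least 2-fold lower (7.81%, background 18.5%): RDBP (−1.70), POLR2E (−1.49), MED4 (−1.18), TAF1D (−1.10) and GTF2A2 (−1.05). Relative to the median gene 38 members lay above and 26 below, and 1, RDBP, was at least 2-fold lower, at −1.18 (background 5.73%).

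By complex, the median log2 change with A771726 was −0.55 for polymerase II genes, −0.41 for general factors, −0.43 for TAFs, −0.44 for the polymerase I TAFs, −0.68 for SAGA and −0.27 for NELF. With leflunomide the same medians were 0.09, 0.00, 0.12, 0.49, −0.21 and 0.16. The medians of groups of 3 genes are the values of single members.

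RDBP (NM_002904) encodes NELF-E, the RNA-binding subunit of the pausing factor NELF. Its gene body densities were 0.0658 and 0.0257 (DMSO), 0.0408 and 0.0419 (leflunomide) and 0.0213 and 0.0039 (A771726). Both A771726 values lay below all 4 others, and library 2 was the lower of the pair. The limma estimate was −1.86 (95% interval −3.43 to −0.29, adjusted p = 0.185). It was −0.89 without A771726 library 2, −2.84 without library 1 and −1.22 without DMSO library 1. The promoter of RDBP held 3 and 6 reads (DMSO), 6 and 2 (leflunomide) and 9 and 2 (A771726). Because 1 read differs in value between libraries, reads do not compare directly across groups. The promoter densities were 0.131 and 0.312 (DMSO), 0.208 and 0.0752 (leflunomide) and 0.2165 and 0.0626 (A771726).

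The other NELF genes had smaller differences in the means. TH1L (NELF-C/D) had gene body densities of 0.0871 and 0.134 (DMSO) against 0.0740 and 0.111 (A771726), which overlap, with a limma estimate of −0.25 (−1.07 to 0.58, adjusted p = 0.660). WHSC2 had 0.0225 and 0.0203 in DMSO and 0.0277 and 0.0071 with A771726, so 1 library was above and 1 below. Its estimate was −0.50 (−1.75 to 0.75, adjusted p = 0.551), and 0.34 without A771726 library 2. No test compared RDBP with its partner genes.

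POLR2E (NM_002695) had gene body densities of 0.0238 and 0.0098 with A771726, both below the DMSO values of 0.0479 and 0.0542. Its limma estimate was −1.59 (−2.70 to −0.48, adjusted p = 0.149), and −1.03 without A771726 library 2. MED4, of the Mediator middle module, had 0.0240 and 0.0328 (DMSO), 0.0257 and 0.0268 (leflunomide) and 0.0132 and 0.0095 (A771726). The A771726 values of MED4 were the lowest of the 6, with an estimate of −1.17 (−1.95 to −0.40, adjusted p = 0.141). TAF1D had 0.249 and 0.214 (DMSO), 0.202 and 0.212 (leflunomide) and 0.118 and 0.0950 (A771726). Its estimate was −1.11 (−1.75 to −0.46, adjusted p = 0.121), the smallest adjusted p of any member in this comparison. GTF2A2 had −1.04 (−1.93 to −0.14, adjusted p = 0.189).

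**Figure D2:**
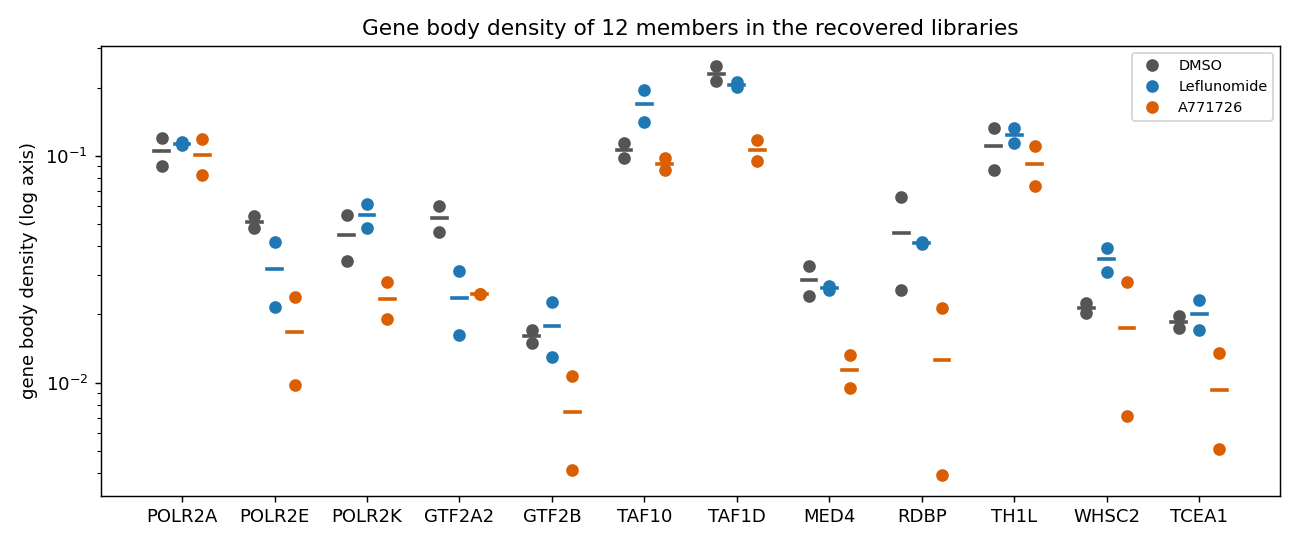
Gene body density (y axis, log scale) of 12 members in the recovered libraries of DMSO, leflunomide and A771726. Points are libraries and bars are their means. At RDBP, POLR2E, MED4 and TAF1D both A771726 points lie below both DMSO points, whereas at POLR2A and WHSC2 the A771726 and DMSO points overlap.

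Mediator members with A771726 ranged from −1.18 at MED4 to −0.06 at MED26, with a median of −0.56 over 12 genes, of which 6 lay above the median gene and 6 below. Next to MED4 were MED31 (−0.98; means of 0.0918 in DMSO and 0.0454 with A771726) and MED16, of the tail module (−0.97; 0.0277 and 0.0131). GTF2B, the gene of TFIIB, was also among the lowest members (−0.92), with 0.0170 and 0.0150 (DMSO) against 0.0107 and 0.0041 (A771726). MED31 was not in the limma fit because its promoter mean with A771726 was listed at 0. Integrator members had a median of −0.04 over 9 genes, 6 of them above the median gene. INTS6 (0.31), INTS1 (0.25), INTS2 (0.13) and INTS4L2 (0.05) had a higher mean than in DMSO, as had the TFIID gene TAF4 (0.06). INTS6 had 0.0579 and 0.0344 in DMSO and 0.0477 and 0.0680 with A771726, which overlap. INTS1, the largest Integrator subunit, had 0.0278 and 0.0195 against 0.0263 and 0.0306, also overlapping.

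POLR2A (NM_000937), the catalytic subunit, had overlapping gene body densities in the 3 groups. It had 0.121 and 0.0900 (DMSO), 0.112 and 0.115 (leflunomide) and 0.0823 and 0.119 (A771726). The limma estimate with A771726 was −0.07 (−0.84 to 0.69, adjusted p = 0.892). Among the small subunits POLR2K (−0.88), POLR2J (−0.78), POLR2L (−0.74) and POLR2F (−0.68) had lower means, while POLR2D had 0.09. POLR2H had 0.0825 and 0.0634 (DMSO) against 0.0495 and 0.0666 (A771726), which overlap. Of the 10 polymerase II genes 5 lay above the median gene and 5 below. At POLR2K, POLR2L and POLR2F both A771726 libraries lay below both DMSO libraries, and at POLR2J the libraries overlapped.

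Of the 51 members with library values in both groups, 23 had both A771726 libraries below both DMSO libraries (45.1%, background 54.9%) and none had both above (background 2.09%). By limma 0 of 49 members and 0 of all genes were called at an adjusted p of 0.05. At an unadjusted p under 0.05 there were 5 members (the 5 named above as 2-fold lower) and 1036 genes (22.7%). Among the 37 members with the library known, 4 had such a p (background 21.4%). With each library centred on its median, 2 of these 37 had one (background 8.08%). Among members with the library known, A771726 library 2 had the lower gene body value in 35 of 54 (64.8%), against 69.5% of all genes, and DMSO library 2 in 37 of 53 (69.8%) against 63.2%. The part of that difference between libraries in these results was not tested beyond the estimates without a library.

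The 2 compounds were then compared at the same dose and time, as the only pair of related molecules in the series. They differ by the opening of the isoxazole ring. Gene bodies of the machinery were lower with A771726 than with leflunomide, again with the rest of the genes: the median log2 difference was −0.51 for members and −0.47 for all genes. In the means 10 members were at least 2-fold lower (15.6%, background 12.4%) and none was 2-fold higher (background 1.03%). Relative to the median gene 30 members lay above and 34 below, and 1, RDBP, was 2-fold lower (−1.08, background 3.77%). This comparison shares its A771726 libraries with the one above.

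RDBP (−1.56), MED31 (−1.20), POLR2K (−1.16), MED19 (−1.15), GTF2H4 (−1.12), TAF9 (−1.12), MED4 (−1.07) and TAF9B (−1.07) were lowest in the means. At TAF9 the libraries overlapped, with 0.0444 and 0.122 (leflunomide) against 0.0199 and 0.0542 (A771726). MED31 and GTF2H4 had no recovered A771726 library values. TCEA2 (0.51), MED26 (0.10), INTS3 (0.09), GTF2A2 (0.05), ELL3 (0.03), INTS10 (0.01), INTS6 (0.00) and POLR2H (−0.05) were highest. POLR2K, a small zinc-binding subunit of all 3 polymerases, had 0.0481 and 0.0615 with leflunomide and 0.0190 and 0.0277 with A771726, and these did not overlap. Its limma difference was −1.17 (−2.05 to −0.29, adjusted p = 0.329). TAF10 had 0.141 and 0.197 with leflunomide against 0.0979 and 0.0864 with A771726, a difference of −0.84 (−1.56 to −0.13, adjusted p = 0.329). RDBP differed by −1.86 (−3.43 to −0.29, adjusted p = 0.329), and by −0.89 without A771726 library 2. GTF2A2 differed by 0.12 between the compounds, with an interval of −0.78 to 1.01 (adjusted p = 0.854).

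In 26 of 51 members both A771726 libraries lay below both leflunomide libraries (51%, background 55.1%), and in none did both lie above (background 2.2%). All 3 NELF genes were among the 26. limma called 0 members and 0 genes at an adjusted p of 0.05, and at an unadjusted p under 0.05 it had 9 members and 687 genes (15%). The 9 were TAF1D, MED4, POLR2K, TAF1A, RDBP, TAF10, TAF9B, GTF2B and TCEA1, all lower with A771726. Among the 37 members with the library known, 5 had such a p (background 14.6%). With each library centred on its median, 0 of these 37 had one (background 5.11%). For POLR2A the difference was −0.19, with an interval of −0.96 to 0.57. A p that misses the threshold does not show that the compounds act alike on these genes.

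**Figure D3:**
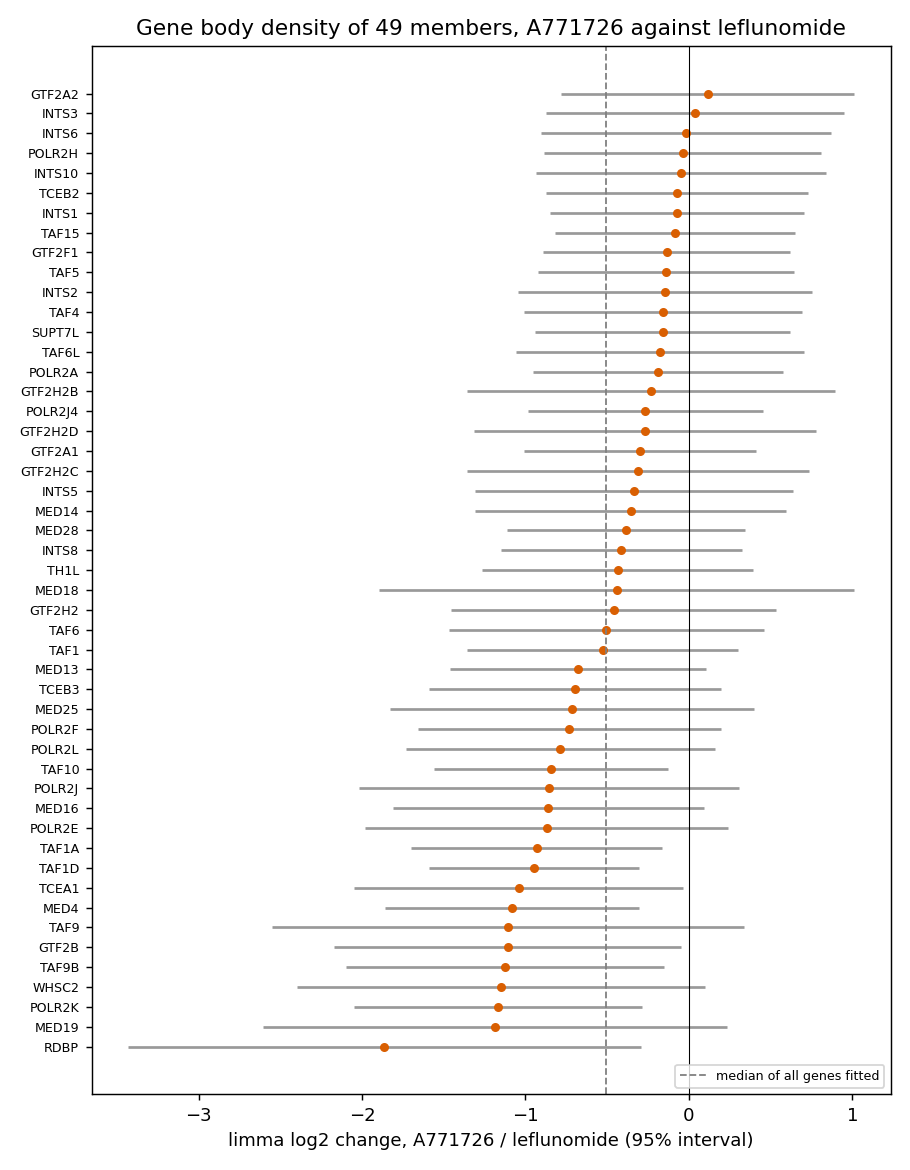
limma estimates of the log2 difference in gene body density between A771726 and leflunomide (x axis) for the 49 members in the fit, sorted by estimate. Points are estimates, lines are 95% intervals and the dashed line is the median of the genes fitted (−0.51). RDBP lies lowest at −1.86, and GTF2A2 and INTS3 are the 2 members with estimates above 0.

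Promoter densities rest on few reads: the median member density in DMSO, 0.0725, lies between the values of 1 and 2 reads. With leflunomide the median log2 change of 66 members was 0.41, against 0.22 over 8838 genes, with a pseudocount of 0.01735. At least 2-fold higher were 21 members (31.8%, background 30.6%) and 5 were lower (7.58%, background 16%). With A771726 the median was 0.03 against 0.00, with 15 members 2-fold higher (22.7%, background 20.8%) and 14 lower (21.2%, background 26%). Between the compounds the median was −0.30 for members, with 3 higher (4.55%, background 13.5%) and 18 lower (27.3%, background 30.6%) with A771726. TCEA3 and GTF2E2 were under the promoter filter.

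These medians depend on the DMSO libraries. Over the 37 members with the library known, the median of the limma estimates with leflunomide was 0.08, against 0.25 over 3279 genes. It was 0.56 without DMSO library 1 (0.68 over all genes) and −0.03 without DMSO library 2 (−0.19 over all genes), so the sign turned. With A771726 the member median was 0.06, 0.31 without DMSO library 1 and −0.12 without DMSO library 2, against −0.08, 0.36 and −0.60 over all genes.

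Both leflunomide libraries lay above both DMSO libraries in 14 of 58 members (24.1%, background 16.2%), and both A771726 libraries in 12 of 52 (23.1%, background 10.3%). These counts include GTF2H2, GTF2H2B, GTF2H2C and GTF2H2D, copies of the gene of the TFIIH subunit p44 that are nearly identical, so their separate values are uncertain. With those copies counted as 1 gene the leflunomide median became 0.15, and with 3 pseudogenes also left out it became 0.04 and that of A771726 −0.08. With the copies as 1 gene and pseudogenes kept, 18 of 63 members were at least 2-fold higher with leflunomide (28.6%, background 30.6%). With A771726 12 of 63 were (19%, background 20.8%), and the lower counts stayed at 5 and 14. Both libraries lay below in 4 members with leflunomide (background 10.8%) and 7 with A771726 (background 16.3%). Between the compounds 4 of 53 members were separate above (background 7.48%) and 9 below (background 21.9%).

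MED18, of the Mediator head, had promoter densities of 0.175 and 0.0520 (DMSO), 0.382 and 0.372 (leflunomide) and 0.385 and 0.438 (A771726). The reads behind them were 4 and 1 in DMSO and 16 and 14 with A771726. All 4 treated values were above both DMSO values. The limma estimates were 1.77 (95% interval 0.05 to 3.49, adjusted p = 0.995) and 1.89 (0.17 to 3.61, adjusted p = 0.994). The MED18 gene body did not share this: it had 0.0380 and 0.0129 in DMSO and 0.0119 and 0.0233 with A771726. GTF2H2C, taken for the p44 copies, had 2 reads and 1 read in DMSO and 14 and 9 with A771726. Its promoter densities were 0.0875 and 0.0520 (DMSO), 0.228 and 0.429 (leflunomide) and 0.337 and 0.282 (A771726). POLR2K had 0.175 and 0.0127 (DMSO), 0.211 and 0.608 (leflunomide) and 0.492 and 0.219 (A771726). All its treated values were above both DMSO values, and those of the 2 compounds overlap. The 0.0127 lies under the value of 1 read in that library (0.0520) and is uncertain. Other promoter values given here and below also do not lie on whole reads, so no reads are given for them. Among them are 0.372 at MED18 (leflunomide), 0.421 at GTF2A2 (A771726), and 0.594 (DMSO) and 0.291 (A771726) at POLR2A. The reason was not tested.

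GTF2A2, lower in its gene body, had a denser promoter. The promoter held 8 and 2 reads in DMSO and 14 and 8 with leflunomide, with densities of 0.350 and 0.104 against 0.486 and 0.301, which overlap. With A771726 the densities were 0.421 and 0.845, above both DMSO values, and the estimate was 1.54 (0.06 to 3.02, adjusted p = 0.994). TH1L also had a denser promoter with leflunomide (0.451 and 0.564, against 0.263 and 0.208 in DMSO), and its A771726 values of 0.529 and 0.250 overlapped with DMSO. INTS1 held 1 read and 0 reads (DMSO), 0 and 1 (leflunomide) and 6 and 3 (A771726). Its promoter densities were 0.0438 and 0 (DMSO), 0 and 0.0376 (leflunomide) and 0.144 and 0.0939 (A771726).

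POLR2A went the other way. Its promoter densities were 0.594 and 0.728 (DMSO), 0.628 and 0.377 (leflunomide) and 0.291 and 0.157 (A771726). The A771726 libraries of POLR2A were the lowest of the 6, with an estimate of −1.54 (−2.95 to −0.13, adjusted p = 0.994). GTF2F1, which encodes the large subunit of TFIIF, had 7 and 4 reads (DMSO), 6 and 4 (leflunomide) and 4 reads and 1 read (A771726). Its promoter densities were 0.306 and 0.208 (DMSO), 0.208 and 0.150 (leflunomide) and 0.0962 and 0.0313 (A771726). At POLR2E the promoter was denser with leflunomide alone, at 0.555 and 0.226 against 0.131 and 0.156 in DMSO and 0.192 and 0.0626 with A771726.

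Over 4770 promoters limma called 2 genes with leflunomide (0.0419%), 3 with A771726 (0.0629%) and 0 between the compounds (background 0%), none of them a member. Without DMSO library 1 the calls were 25 with leflunomide and 17 with A771726, against 2 and 2 on the same genes with all libraries, and no member was among them. At an unadjusted p under 0.05 there were 6 of 50 members with leflunomide (background 2.14%), 4 of them the p44 copies. With A771726 there were 5 (background 3.96%), and between the compounds 0 (background 2.68%). The smallest adjusted p of a member was 0.995, 0.994 and 0.998 in the 3 comparisons.

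**Figure D4:**
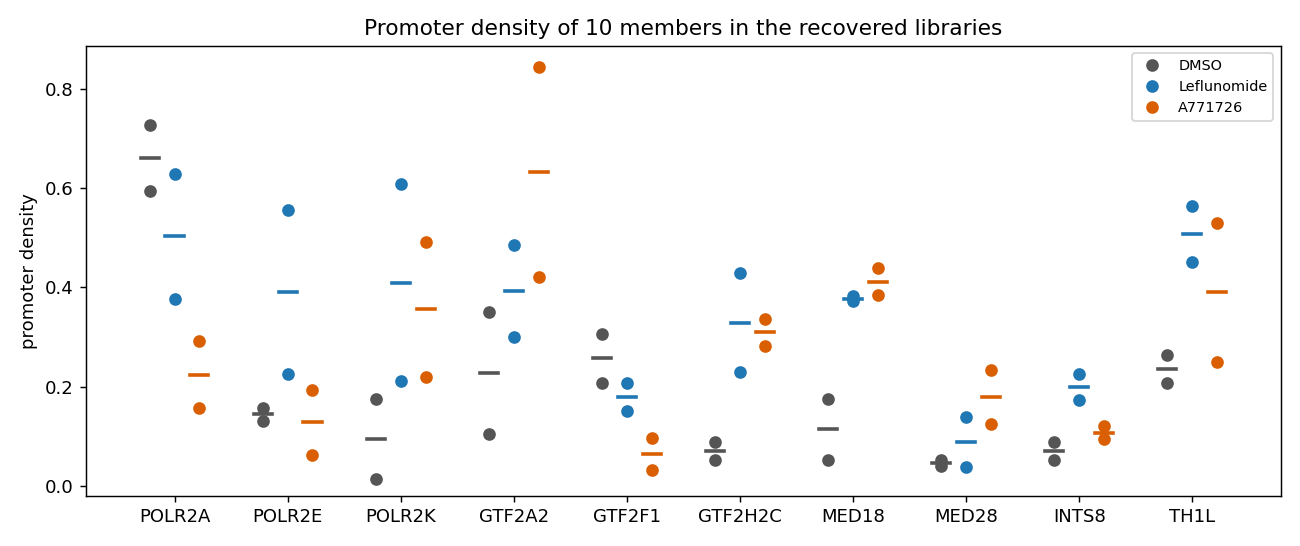
Promoter density (y axis) of 10 members in the recovered libraries of DMSO, leflunomide and A771726. Points are libraries and bars are their means. At MED18 and GTF2H2C all treated points lie above the DMSO points, and at POLR2A the A771726 points lie lowest.

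The traveling ratio could be compared in 51 members. The median ratio of the set was 3.65 in DMSO, 5.09 with leflunomide and 6.33 with A771726, against 2.64, 2.94 and 3.20 over all genes with a ratio. No row of the tables exceeds 7.5 in DMSO, a limit that was not applied to the treated groups. Cutting the DMSO ratios alone favours a higher treated ratio in members and other genes alike, and the size of that was not tested. With leflunomide 19 of 68 members exceeded 7.5 (27.9%, background 11.9%) and with A771726 20 of 66 (30.3%, background 14.9%). Both counts include each of the p44 copies GTF2H2, GTF2H2B, GTF2H2C and GTF2H2D, and were not repeated with the copies counted once. Genes with a promoter mean of 0 cannot exceed 7.5. They were 34.9% (leflunomide) and 39.6% (A771726) of all genes, against 5.88% and 13.2% of members. Members also had denser promoters than other genes, and the part of both in these shares was not tested.

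With leflunomide the median log2 change of the ratio was 0.49 for members and 0.27 for 5173 genes, with 16 members at least 2-fold higher (31.4%, background 27.9%) and 7 lower (13.7%, background 15.3%). With A771726 it was 0.76 against 0.42, with 22 higher (43.1%, background 34.6%) and 9 lower (17.6%, background 17.1%). With the p44 copies counted as 1 gene, 13 of 48 members were higher with leflunomide (27.1%, background 27.9%). With A771726 19 of 48 were (39.6%, background 34.6%), and the lower counts stayed at 7 and 9. Between the compounds 12 were higher with A771726 (23.5%, background 26.9%) and 7 lower (13.7%, background 20.9%). With the limit of 7.5 set in every group the member medians became −0.30 with leflunomide and −0.25 with A771726, the opposite sign, against 0.05 and 0.09 over all genes under that limit. That limit drops members whose ratio passed 7.5 with a compound.

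Among the 51 members with a ratio above 0 in every group, POLR2D had the highest log2 change of the mean ratio with both compounds. It went from 1.73 in DMSO to 10.3 with leflunomide and 11.3 with A771726. Its DMSO promoter value of 0.0260 is a mean over 2 libraries, in which 1 read is worth 0.0438 and 0.0520. That mean is what 1 read in library 2 and none in library 1 would give. The DMSO library values of POLR2D were not recovered. The DMSO ratio behind both changes thus rests on very few reads. GTF2A2 went from 4.02 to 17.1 and 25.7. Its libraries had ratios of 5.80 and 2.24 (DMSO), 15.7 and 18.5 (leflunomide) and 17.03 and 34.3 (A771726), so all treated values were above both DMSO values. GTF2H2C had means of 3.30, 16.1 and 21.2. RDBP had 7.07, 3.45 and 13.1, but its DMSO libraries alone lay at 2.00 and 12.1.

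POLR2A had the reverse order, with mean ratios of 6.50, 4.45 and 2.42. Its libraries had 4.92 and 8.09 (DMSO), 5.62 and 3.28 (leflunomide) and 3.54 and 1.31 (A771726). The A771726 values were below the DMSO values. Other low ratios with A771726 were those of INTS3 (0.379 against 4.59 in DMSO), TAF9B (0.230 against 1.88), MED16 (0.777 against 4.37) and GTF2F1 (1.64 against 6.94). At INTS3, TAF9B and MED16 the A771726 promoters held 1 read in one library and 0 in the other, so each rests on 1 read. With leflunomide TAF9 (0.480 against 3.16) and POLR2J (1.57 against 6.70) were lowest, followed by GTF2B (1.33 against 3.86) and MED16 (1.73 against 4.37). GTF2H4 and TCEA2, outside the 51 because their A771726 ratio was listed at 0, had 0.0944 and 0.543 in DMSO and 0.763 and 4 with leflunomide.

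Between the compounds TAF9 (0.480 with leflunomide, 6.46 with A771726), INTS1 (0.653 and 4.28), RDBP (3.45 and 13.1) and MED4 (3.43 and 10.97) had the highest changes of the mean ratio. TAF9B (1.60 and 0.230), INTS3 (2.499 and 0.379), MED14, the Mediator backbone subunit (8.16 and 2.34), and INTS10 (6.16 and 2.11) had the lowest. These ratios rest on few promoter reads. INTS1 held 0 and 1 reads with leflunomide, and INTS10 held 4 and 0 with A771726. MED4 held 3 and 2 (leflunomide) and 3 and 5 (A771726). Values under 1 read, and so uncertain, were those of TAF9 (leflunomide, 0.0152), INTS3 (leflunomide, 0.0128) and MED14 (A771726, 0.0076). The A771726 ratios of INTS3 and TAF9B rest on 1 read each, as given above.

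**Figure D5:**
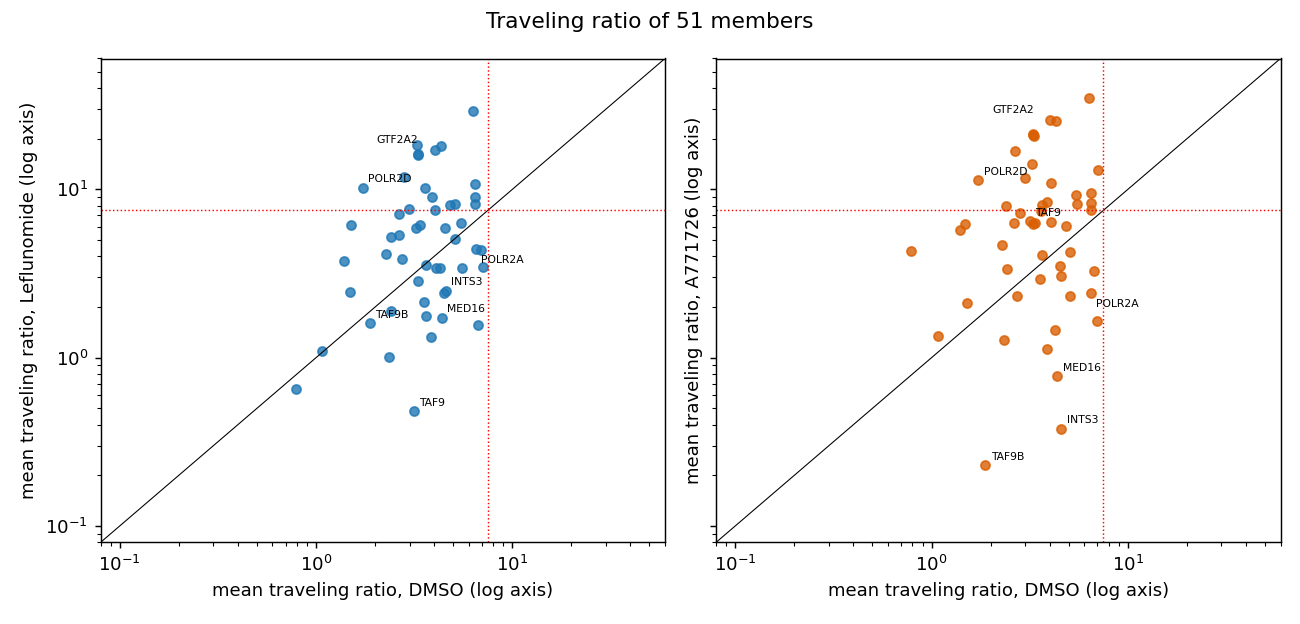
Mean traveling ratio of 51 members in DMSO (x axis) against leflunomide (left) or A771726 (right), both axes logarithmic. The diagonal marks equal ratios and the dotted lines a ratio of 7.5, above which the tables hold no DMSO value. GTF2A2 and POLR2D lie far above the diagonal in both panels and POLR2A lies below it. The DMSO ratio of POLR2D rests on very few reads.

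Of 52 other genes of polymerase II regulation 30 were in the tables and 27 passed the gene body filter. With leflunomide 1 of 27 was at least 2-fold higher (3.70%, background 1.84%): KAT2B, a SAGA-type acetyltransferase, at 1.05. Its gene body means were 0.0054 (DMSO), 0.0135 (leflunomide) and 0.00745 (A771726). The filter was 0.00872 on the mean over the groups, so KAT2B passed it only through the group in which it is high. ERCC2, the XPD helicase of TFIIH, was at least 2-fold lower (−1.04, 3.70%, background 4.49%). With A771726 none was 2-fold higher and 3 were lower: ERCC2 (−1.82), TBP (−1.36) and the termination factor PCF11 (−1.02). Those 3 are 11.1% of the 27, under the 18.5% of all genes. Their medians of −0.08 and −0.56 were near those of all genes. Between the compounds 0 of the 27 reached 2-fold in either direction (background 1.03% higher and 12.4% lower).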

How the data were processed

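Per the submitters' processing notes the reads were handled with hg18, Bowtie 0.12.9 and bedtools. No source used here gives the window limits, scaling or annotation. Per the file headers, the authors deposited group means over 2 replicates: a read density (signal) for promoters and for gene bodies, and their ratio, the traveling ratio. The headers write A771762, read as A771726.

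Changes were computed after dropping genes whose mean density was under the 30th percentile, with the pseudocounts given. The library values were solved from each row's mean densities and ratio. A single solution was found in 92.1%, 96.1% and 95.2% of rows holding promoter reads and a finite ratio in DMSO, leflunomide and A771726. Of the promoter values 77.6%, 73.9% and 78.5% lay on whole reads, against 0.0274%, 0.0829% and 0.0463% after a shift. Genes solved in all groups were fitted with limma 3.58.1 in R 4.3.3 (trend and robust options, all 3 groups, Benjamini-Hochberg over all genes), on log2(density + pseudocount). That keeps 49 members, all with promoter reads in every group. The steps were also run on simulated data. There all promoter values lay on whole reads, unlike part of the real ones, so no support is drawn from that run.

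The members and lists were chosen with earlier results of these data known. Named are the 8 highest and 8 lowest gene body changes and the 4 highest and 4 lowest ratio changes per comparison, the densest member of each complex, POLR2A and the NELF genes. MED18, POLR2F, POLR2L and other genes outside this rule were chosen after their values were seen. RefSeq matched 67 of the 68 members by transcript.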

Additional observations from a re-analysis of the deposited data

How the results depend on the processing

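No paired analysis was possible because the columns carry no replicate letters. Centred on the median gene, the member medians of the gene body became 0.0792 (A771726 against DMSO) and −0.0347 (against leflunomide), those of the promoter 0.195 (leflunomide) and 0.00182 (between compounds), and that of the A771726 ratio 0.34. A pseudocount 5 times larger gave promoter medians of 0.21 (leflunomide) and −0.20 (between compounds), and no filter 0.27 (leflunomide). Counting the p44 copies as 1 gene gave a promoter median of 0.15 with leflunomide. Leaving out 3 pseudogenes as well gave 0.0434 (leflunomide) and −0.0847 (A771726). Both were chosen after seeing the data. The ratio median with leflunomide was 0.12 with a 50th percentile filter and −0.30 with the limit of 7.5, and that of A771726 with the limit was −0.25. The causes were not tested.

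With the larger pseudocount the counts of 2-fold lower gene bodies went from 1, 5 and 10 (leflunomide, A771726, between compounds) to 0, 3 and 2, or 0%, 4.69% and 3.12% of members against 2.14%, 9.37% and 4.54% of genes under the same setting. Centred, 1 remained in each A771726 comparison. For promoters the larger pseudocount took the leflunomide counts from 21 higher and 5 lower to 9 and 0 (13.6% and 0%, genes 6.95% and 3.05%), the lower A771726 count from 14 to 6 (9.09%, genes 6.71%), and that between compounds from 18 to 4 (6.06%, genes 7.68%). Centring gave 8 lower with leflunomide (12.1%, genes 19.7%), and 7 higher and 10 lower between compounds (10.6% and 15.2%, genes 19.3% and 21%). The stricter filter gave 3 lower with leflunomide (5.08%, genes 13.2%). The limit of 7.5 left 3, 6 and 6 higher ratios of 26 in place of 16, 22 and 12 of 51 (11.5%, 23.1% and 23.1%, genes 22%, 24.5% and 21.8%). The ratio of mean densities gave 4 lower between compounds in place of 7 (7.84%, genes 13.5%).

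limma called 0 members in every alternative, leaving out each library included, at gene bodies and promoters. Without A771726 library 1 it called 70 gene bodies, all lower, with A771726 against DMSO. Without DMSO library 1 it called 25 promoters with leflunomide and 17 with A771726, all higher, against 2 and 2 on the same 3279 genes with all libraries. Few promoter reads limit the promoter and ratio values.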
